A study of Mus musculus with 2 samples.

Results

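The 5 microRNA genes Mir335, Mir483, Mir675, Mir296 and Mir298 lie at the imprinted loci of Mest, Igf2, H19 and Gnas, and they were taken by gene name from the 2202 microRNA genes counted in each library. Small RNA of heart tissue from B6CASTF1/J males at 10 days of age was sequenced in 2 libraries that the labels number as biological replicates 1 and 2. B6CASTF1/J is a first-generation hybrid between the C57BL/6J laboratory strain and the wild-derived CAST strain, so each animal carries 1 set of autosomes from each strain. There was 1 group and no control, treatment or second tissue, so the design gives the level of each microRNA and the difference between the replicate libraries. The labels name a separate tissue sample for each library but the same donor identifier. Their sample descriptions name a different male for each library, so the labels do not settle whether 1 or 2 animals were used. The spread between the libraries is therefore described as the spread between 2 samples of 1 group.

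In genomic imprinting a gene is transcribed from only the maternal or only the paternal copy, under marks set in the parents' germ cells. Mest and Igf2, which encodes a fetal growth factor, are transcribed from the paternal copy, and the noncoding RNA H19 from the maternal copy. These 3 genes are known for high expression in fetal tissue and for a decline as growth slows after birth. The Gnas locus gives several maternal, paternal and biallelic transcripts, and Mir296 and Mir298 are known in the mouse as paternally expressed microRNAs of that locus. The counts are per gene and do not separate the C57BL/6J copy from the CAST copy, so nothing below measures imprinting itself.

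The mature microRNAs are shown because the seed, bases 2 to 8 from the 5′ end, is the part that chiefly guides pairing with messenger RNAs. Capitals mark the seed, and the sequences and positions are those of RefSeq (GRCm38.p6, the mm10 build).
miR-335-5p: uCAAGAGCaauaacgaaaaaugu
miR-335-3p: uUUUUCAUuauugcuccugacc
miR-483-5p: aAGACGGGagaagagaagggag
miR-483-3p: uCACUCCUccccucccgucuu
miR-675-5p: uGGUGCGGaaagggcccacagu
miR-675-3p: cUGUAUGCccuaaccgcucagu
miR-296-5p: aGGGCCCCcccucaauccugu
miR-296-3p: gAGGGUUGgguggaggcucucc
miR-298-5p: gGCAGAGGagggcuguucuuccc
miR-298-3p: gAGGAACUagccuucucucagcuu

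No seed of the 5 genes recurred in another gene among the 1738 mature sequences of 1058 mouse genes in the RefSeq table. Each of the 5 genes was thus alone with its seeds in that table. None of the 5 hairpins shared a stretch of 20 bases with another counted hairpin, whereas 1084 of the 2202 counted hairpins did. A read of these genes thus had no second counted hairpin of that likeness to be confused with, although positions elsewhere in the genome were not searched.

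The libraries held 3748432 reads on the gene strand of microRNA genes in replicate 1 and 6305782 in replicate 2. Levels are given as CPM, counts scaled to a total of 1000000 on these genes. Reads were not calibrated to molecules for each gene, so an order of levels across genes is an order of read counts. With 0 counts a gene could still have had a level of up to 3 counts, which was 0.800 CPM in replicate 1 and 0.476 CPM in replicate 2. Reads with several mapping positions, 36.8% and 48.1% of all reads, were outside every gene count. Of the 7 cardiac muscle microRNA genes on the marker list 6 reached 10 counts in each library, and the 7 together took 0.832% and 1.25% of the counts. The Mir1a and Mir133a genes on that list share 20 bases with other hairpins. Their reads with several mapping positions are outside this sum, which may therefore be too low for cardiac muscle. The single endothelial marker, Mir126a, took 8.90% and 10.1%, and the 2 erythroid markers 0.991% and 0.870%. The 3 leukocyte markers, of which Mir142b was at 0 in both, took 0.0137% in replicate 1 and 0.0329% in replicate 2, and the liver marker Mir122 took 0.00579% and 0.00777%. Genes within the cardiac muscle list and within the erythroid list did not all go the same way. On the cardiac muscle list, Mir208a was higher in replicate 1 (3795 against 1362 CPM). Mir208b (794 against 3444 CPM), Mir499 (3678 against 7542 CPM) and Mir1a-2 (43.2 against 99.6 CPM) were lower there. The rest of that list had few reads. Mir1a-1 (3.47 against 3.01 CPM) was slightly higher in replicate 1, and Mir133a-1 (2.67 against 4.28 CPM) and Mir133a-2 (0.534 against 0.634 CPM) were lower. On the erythroid list, Mir451a was higher in replicate 1 (9591 against 8251 CPM) and Mir144 lower (316 against 453 CPM). The 2 leukocyte markers with counts, Mir142 (117 against 249 CPM) and Mir223 (20.5 against 79.9 CPM), were both lower in replicate 1. With lists this short or mixed, the sums are not read as a difference in cell types. The part of cell types in the results below was not tested. Intervals are exact Clopper-Pearson 95% intervals and cover counting error only. They can be too narrow even for that, since amplified reads are not independent molecules. In whole heart tissue, fewer cells of a type and less RNA per cell cannot be told apart.

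All 5 genes reached 10 counts in each library, and so did 340 (15.4%) of the 2202 counted genes. Their levels spanned more than 3 orders of magnitude, from Mir335, which ranked 15 by mean level among all counted genes, to Mir675, which ranked 291. Their summed share of the counts was 1.53% in replicate 1 and 2.11% in replicate 2. Mir335 made up 79.6% of that sum in replicate 1 and 94.9% in replicate 2.

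**Figure D1:**
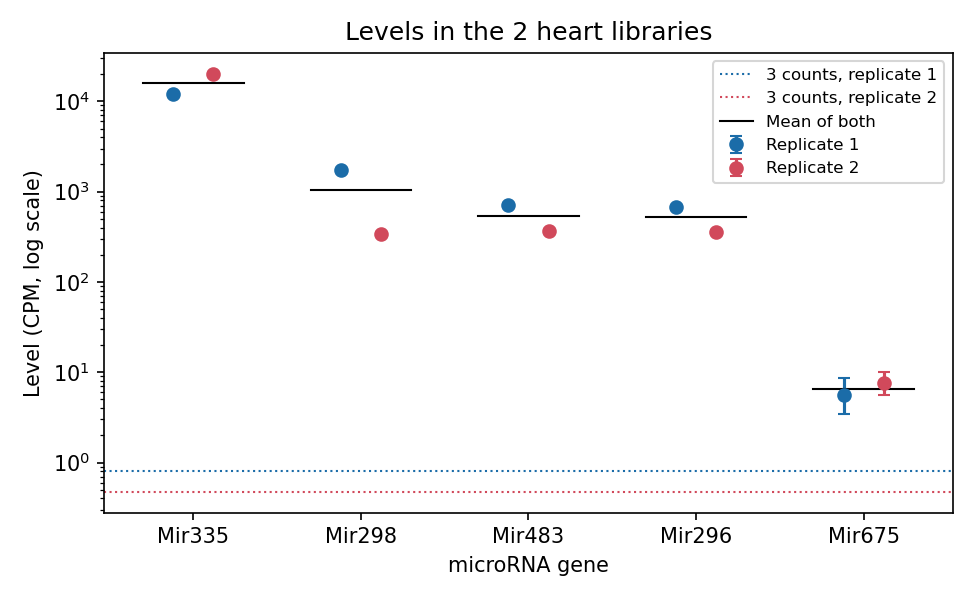
Level of each gene in CPM on a log scale, with replicate 1 left of replicate 2, exact 95% counting intervals as error bars (hidden by the points where narrow), the mean as a black line and the level of 3 counts as dotted lines. Mir335 was highest at 12191 and 20015 CPM, Mir298, Mir483 and Mir296 lay between 342 and 1723 CPM, and Mir675 was lowest at 5.60 and 7.61 CPM.

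Mir335 (ENSMUSG00000065501.1; chromosome 6, 30741299 to 30741396, plus strand, mm10) lies in an intron of Mest, on the same strand, and miR-335 is known in human breast cancer as a suppressor of metastasis. It had 45698 counts in replicate 1 and 126213 in replicate 2, or 12191 and 20015 CPM, with a mean of 16103 ± 5533 CPM (SD, n = 2). It ranked 17 among all counted genes in replicate 1 and 14 in replicate 2, so its place near the top held in both libraries while its level differed. Against the other 4 genes of the set summed, Mir335 had 3.91 times their counts in replicate 1 and 18.6 times their counts in replicate 2. No other counted microRNA gene lay closer to Mir335 than Mir29a, 321263 bases away on the minus strand.

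Mir483 (ENSMUSG00000070140.1; chromosome 7, 142654924 to 142654996, minus strand) lies in an intron of Igf2, and also of the overlapping annotated gene Gm49394. It had 2694 counts in replicate 1 and 2309 in replicate 2, or 719 and 366 CPM, with a mean of 542 ± 249 CPM (SD, n = 2). Its rank was 84 in replicate 1 and 98 in replicate 2, so both libraries placed it among the 100 genes with the most counts. Mir675 (ENSMUSG00000076275.1; chromosome 7, 142577064 to 142577147, minus strand) lies 77776 bases from Mir483 in an exon of H19, from which it is cut. In mouse placenta miR-675 is known to restrain growth through the receptor gene Igf1r. It had 21 counts in replicate 1 and 48 in replicate 2, or 5.60 CPM (interval 3.47 to 8.56) and 7.61 CPM (5.61 to 10.1). The mean of Mir675 was 6.61 ± 1.42 CPM (SD, n = 2), above the level of 3 counts in both libraries and below the median of 80.03 CPM of those 340 genes.

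Within this domain of opposite parental origin, the microRNA within Igf2 had more counts than that within H19 in both libraries. The output of Igf2 and H19 themselves was not measured. Mir675 took 0.773% of the 2715 counts of the pair in replicate 1 (interval 0.479% to 1.18%) and 2.04% of the 2357 counts in replicate 2 (1.51% to 2.69%). The log2 ratio of Mir675 to Mir483 was -7.00 in replicate 1 and -5.59 in replicate 2. The split differed between the libraries beyond counting error (Fisher's exact test on the reads, two-sided, p = 0.000131 after adjustment over 2 pairs), and it rests on 21 and 48 reads of Mir675. That test compares 2 libraries and not 2 conditions. It covers counting error only, beyond which 72.1% of the 340 genes with at least 10 counts in each library differed (below). Mir675 taken by itself did not pass there (exact binomial test, adjusted p = 0.178). The split of Mir675 and Mir483 was not set against other pairs of genes.

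Mir296 (ENSMUSG00000065521.1; chromosome 2, 174267047 to 174267125) and Mir298 (ENSMUSG00000065410.1; chromosome 2, 174267504 to 174267585) lie 378 bases apart on the minus strand. The annotation places both between genes, 14111 and 13651 bases beyond the 3′ end of Nespas, a noncoding RNA transcribed from the same strand and antisense to Gnas. In human endothelial cells miR-296 is known to promote vessel growth, and in mouse cells miR-298 is known to repress the protease gene Bace1. Mir296 had 2524 counts in replicate 1 and 2277 in replicate 2, or 673 and 361 CPM, with a mean of 517 ± 221 CPM (SD, n = 2). Mir298 had 6459 counts in replicate 1 and 2154 in replicate 2, or 1723 and 342 CPM, with a mean of 1032 ± 977 CPM. The SD of Mir298 was thus nearly as large as its mean, and its rank was 54 in replicate 1 and 102 in replicate 2.

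The order of the levels per gene was not the same in the 2 libraries below Mir335. By mean CPM it ran Mir335, Mir298, Mir483, Mir296, Mir675. In replicate 1 the interval of Mir298 (1681 to 1766 CPM) lay above those of Mir483 (692 to 746 CPM) and Mir296 (647 to 700.1 CPM). In replicate 2 the intervals of Mir483 (351 to 381 CPM), Mir296 (346 to 376 CPM) and Mir298 (327 to 356 CPM) overlapped, and Mir298 was the lowest of the 3 by count. Mir298, Mir483 and Mir296 therefore had no order that held beyond the spread between the replicates, whereas Mir335 stood above them and Mir675 below them in both.

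The libraries were next compared gene by gene with an exact two-sided binomial test of the counts against the TMM-scaled library sizes, adjusted by Benjamini-Hochberg over the 340 genes that reached 10 counts in each library. Of the 5 genes 4 passed at 0.05, and 72.1% of all tested genes did so, so passing was the usual outcome. Higher in replicate 1 were 3 of the 5 (37.9% of all tested genes), and lower was 1 of the 5 (34.1% of all). The median log2 ratio of replicate 1 over replicate 2 was 0.76 over the 5 genes and 0.05 over all tested genes. Over all tested genes the log2 ratio had an SD of 0.92 and a median absolute value of 0.54. This is the spread against which each gene below is to be read.

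**Figure D2:**
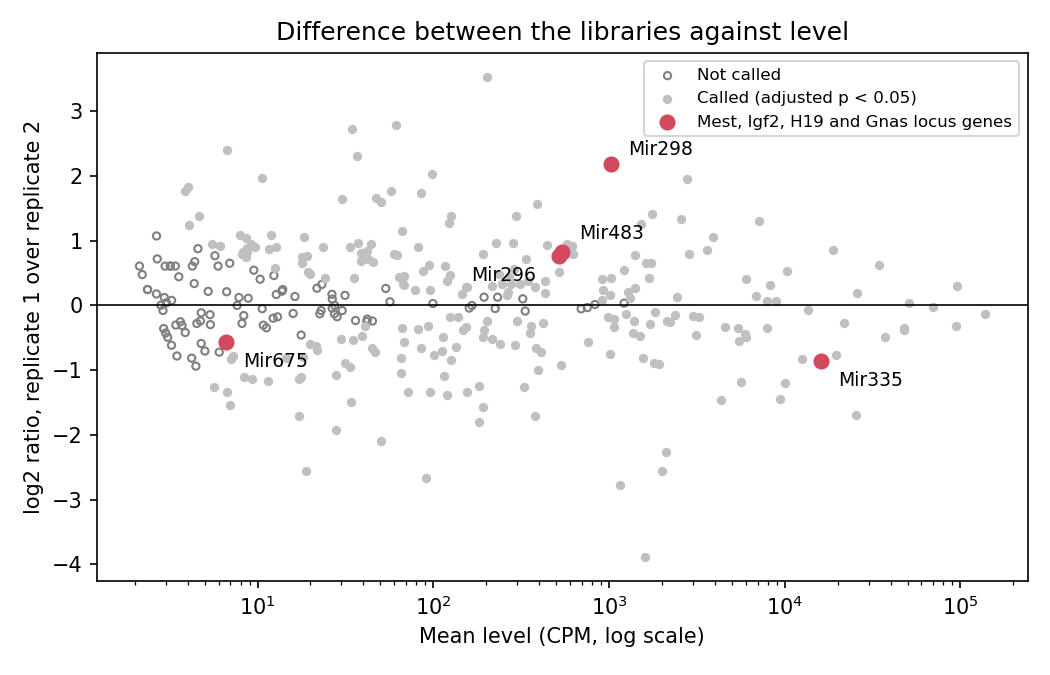
Log2 ratio of replicate 1 over replicate 2 after TMM scaling against mean CPM (log scale) for the 340 tested genes, with open circles for genes not called, grey points for called genes and red points for the genes of the Mest, Igf2, H19 and Gnas loci. Mir298 sits at 2.19, Mir483 and Mir296 nearly coincide at 0.83 and 0.76, and Mir675 (-0.57) and Mir335 (-0.86) lie below 0.

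Mir298 differed most of the 5. Its log2 ratio of replicate 1 over replicate 2 was 2.19 (interval 2.12 to 2.26), which is 4.57-fold higher in replicate 1, and 11 of the other 339 tested genes had a larger absolute ratio. Among all tested genes, 9.41% were called and at least 2-fold higher in replicate 1, and Mir298 was the only gene of the 5 among them. Its adjusted p was too small for the exact test to return a value above 0.

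Mir483 and Mir296, which lie on different chromosomes, differed by nearly the same amount. Mir483 was 1.78-fold higher in replicate 1 (log2 ratio 0.83, interval 0.75 to 0.91; exact binomial test, adjusted p = 6.26e-91). Mir296 was 1.69-fold higher in replicate 1 (log2 ratio 0.76, interval 0.67 to 0.84; adjusted p = 1.08e-72). Both ratios were smaller than the SD of 0.92 over all tested genes, and the intervals overlapped.

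Mir335 went the other way. Its log2 ratio of replicate 1 over replicate 2 was -0.86 (interval -0.87 to -0.84), which is 1.81-fold lower in replicate 1, and 93 of the tested genes had a larger absolute ratio. Mir675 had a log2 ratio of -0.57 (interval -1.40 to 0.18) and did not pass the test (exact binomial, adjusted p = 0.178). With 21 and 48 counts the interval of Mir675 spans both no difference and a difference larger than that of Mir335.

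Since all 3 scalings move every log2 ratio by a common amount, differences between genes do not depend on them. The split of the neighbours Mir296 and Mir298 is such a value. Mir296 took 28.1% of the 8983 counts of the pair in replicate 1 (interval 27.2% to 29.04%) and 51.4% of the 4431 counts in replicate 2 (49.9% to 52.9%). The intervals lay far apart, and the split differed by Fisher's exact test on the reads (two-sided, p = 2.06e-151 after adjustment over 2 pairs), which again compares 2 libraries. Mir298 thus had the more counts of the pair in replicate 1, and the counts were near parity in replicate 2.

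A gap of this size between neighbours was in the upper part of the range in these libraries but not beyond it. Among the tested genes there were 65 pairs of adjacent genes on 1 strand with at most 1000 bases between them, a set chosen after the values of Mir296 and Mir298 had been seen. The absolute difference in log2 ratio within a pair had a median of 0.67, with quartiles of 0.28 and 1.23, and it was 1.44 for Mir296 and Mir298. A larger difference was found in 10 of the 65 pairs, up to 2.52 for Mir497 and Mir195a. Restricted to 39 pairs in which neither hairpin shares 20 bases with another, 6 pairs had a larger difference, and restricted to 37 pairs with at least 100 counts throughout, 4 did. Pairs in a run of genes share members, so they are not independent of each other.

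**Figure D3:**
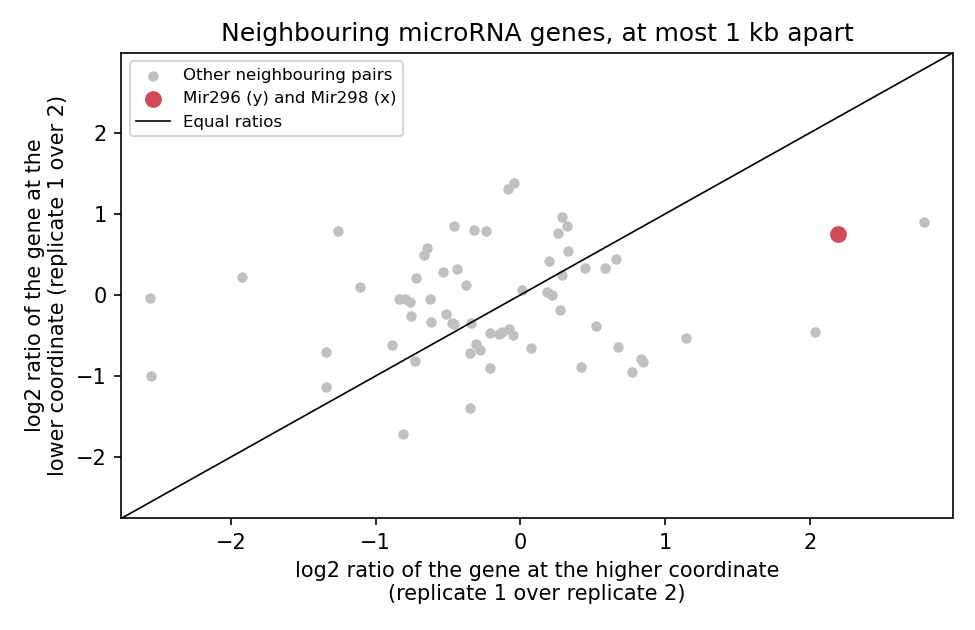
Log2 ratio of replicate 1 over replicate 2 for the 65 pairs of adjacent tested genes at most 1 kb apart on 1 strand, with the gene at the lower coordinate on the y axis, the gene at the higher coordinate on the x axis and the line of equal ratios. The pair of Mir296 (0.76) and Mir298 (2.19) lies off the line, as do other pairs.

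The hairpins of the 5 genes differ widely in base composition. The hairpins of Mir335 and Mir296 are shown as the ends of that range, with the mature arms in capitals (RefSeq, GRCm38.p6; chr6:30741299-30741396 on the plus strand and chr2:174267047-174267125 on the minus strand).
Mir335 hairpin: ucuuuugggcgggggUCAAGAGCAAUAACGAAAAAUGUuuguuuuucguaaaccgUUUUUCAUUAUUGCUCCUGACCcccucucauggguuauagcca
Mir296 hairpin: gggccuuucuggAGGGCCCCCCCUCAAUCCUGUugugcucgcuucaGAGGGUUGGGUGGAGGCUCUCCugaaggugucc

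G and C made up 42.9% of the Mir335 hairpin, 53.7% of Mir298, 58.9% of Mir483, 63.1% of Mir675 and 63.3% of Mir296, against a median of 50.6% over the 340 tested genes. Across those genes the log2 ratio of replicate 1 over replicate 2 correlated with the GC content of the hairpin at a Pearson r of 0.27 and a Spearman rho of 0.26. The genes share the same 2 libraries and are not independent replicates, and the trend held 7.08% of the variance. Among the 158 tested genes that averaged 100 CPM or more, the range of 4 of the 5, Pearson's r was 0.17 and the trend held 3.01%. The rise with GC content was not even. The median log2 ratio was -0.16 below 45% GC, 0.09 from 45% to below 55% and 0.02 from 55% to below 65%. It was 0.65 at 65% and above, where none of the 5 genes lies. The linear trend over all tested genes was removed as an alternative added after the data had been seen. Mir298 then had a log2 ratio of 2.12, Mir483 of 0.62, Mir296 of 0.44 and Mir335 of -0.66. All 4 passed the test, as did 66.2% of all tested genes. Mir675 moved to -0.88 and passed (exact binomial, adjusted p = 0.0245), although its adjusted p lay between 0.143 and 0.316 under the other alternatives. Mature sequences can differ from their hairpins in base composition. G and C made up 65.2% of miR-298-5p and 50% of miR-298-3p, 66.7% of miR-296-5p and 68.2% of miR-296-3p, and 30.4% of miR-335-5p and 36.4% of miR-335-3p. The counts do not separate the arms, and the trend was fitted on hairpins only. The part of base composition in these differences was not tested beyond this.

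**Figure D4:**
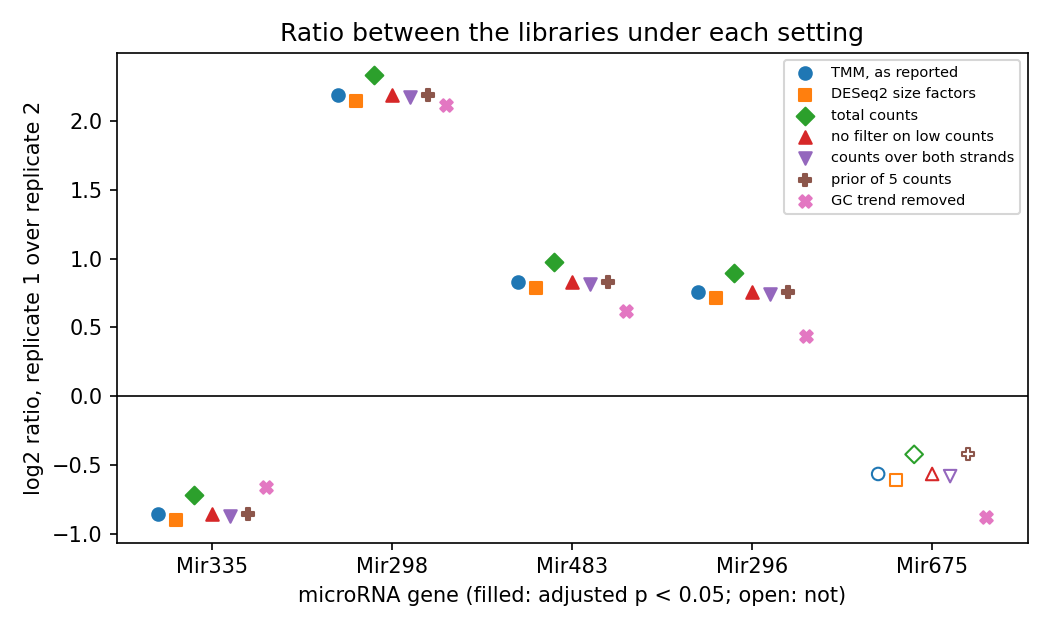
Log2 ratio of replicate 1 over replicate 2 for each gene under the reported TMM scaling and 6 alternatives, with filled symbols where the adjusted p was below 0.05 and open symbols where it was not. Mir298, Mir483 and Mir296 lie above 0 and Mir335 and Mir675 below 0 at every setting, and Mir675 is filled only where the GC trend was removed.

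The tested genes nearest to each of the 5 in log2(CPM + 1) over both libraries were found to show which other heart microRNAs had like values, and with 2 libraries this is a likeness of level only. Nearest to Mir483 was Mir296, at a distance of 0.10, followed by Mir221, also at 0.10. The second neighbour of Mir296, after Mir483, was Mirlet7a-1 at 0.18, whose hairpin shares 20 bases with others. Mir335 was nearest to Mir322 (15463 CPM in replicate 1, 23714 CPM in replicate 2) at 0.42 and to Mir30a at 0.51. Mir675 was nearest to Mir363 at 0.18 and to Mir29b-1, whose hairpin shares 20 bases with 2 others, at 0.19. Mir298 had no close match, since its nearest genes, Mir455 and Mir467d, lay at 1.07 and 1.12. The hairpin of Mir467d shares 20 bases with 14 others.

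Other imprinted microRNAs were set beside the 5 from lists taken by position. Of the 64 counted genes of the Dlk1-Dio3 region on chromosome 12, from Mir770 to Mir410, 45 reached 10 counts in each library. Among these, 23 were higher and 14 lower in replicate 1, which is 82.2% called against 72.1% of all tested genes, with a median log2 ratio of 0.29 and a range of -1.71 to 2.79. The level of its leading gene Mir127 was 4788 CPM in replicate 1, against 2404 CPM in replicate 2, with a log2 ratio of 0.85, near those of Mir483 and Mir296. The second gene of the region, Mir379, had 2999.7 and 3030.4 CPM.

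Of the 119 counted genes within Sfmbt2, whose introns carry a large imprinted cluster, 7 reached 10 counts in each library. The leading genes Mir467d (817 CPM in replicate 1, 426 CPM in replicate 2) and Mir467e (322 and 392 CPM) were not in the range of Mir483, Mir296 and Mir298 in both libraries. In replicate 1 Mir467d lay within it and Mir467e below it, and in replicate 2 both lay above it. As 116 of these 119 hairpins share 20 bases with another, their levels are uncertain in a way that those of the 5 genes are not. The 5 genes held 1.53% of all counts in replicate 1 and 2.11% in replicate 2, against 1.66% and 1.18% for the 64 genes of the Dlk1-Dio3 region.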

How the data were processed

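For each of the 2 heart libraries the authors deposited 1 table of raw counts of reads on microRNA genes, not normalized. The build mm10 and the annotation GENCODE M21 are per the text deposited beside the tables. No aligner or counting program is named: not given in the sources used here. The counts on the gene strand were used, and this strand was inferred from the values. The 4 entries that name no gene stayed out of totals. Replicate numbers are per the labels. Members, lists and tests were chosen with earlier results of these data known. All 5 genes were matched by name in the annotation. RefSeq supplied mature sequences.

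TMM factors (over all 2202 genes) and the common dispersion came from edgeR 4.0.16, and alternative size factors from DESeq2 1.42.0. Log2 ratios used a prior of 0.5 counts. Exact tests used SciPy 1.17.1. Tests covered genes that reached 10 counts in each library. The procedure was tested on counts simulated with Poisson error only, so that check does not cover the wider spread between these libraries. Named genes were the 5, the 2 tested genes nearest to each in log2(CPM + 1), the nearest microRNA gene within 1 Mb and the 2 leading genes of each comparison list. Mir497, Mir195a, Mir208a, Mir208b, Mir499, Mir1a-1, Mir1a-2, Mir133a-1, Mir133a-2, Mir451a, Mir144, Mir142 and Mir223 were named after their values were seen. A chi-square of 978 per degree of freedom over the tested genes was computed only to check that both tables do not come from the same library.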

Additional observations from a re-analysis of the deposited data

How the results depend on the processing

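The number of the 5 genes that differed between the libraries was 4 under DESeq2 size factors, total counts, no filter on low counts, counts over both strands and a prior of 5 counts, and 5 with the GC trend removed. Of all tested genes, 70.6% passed under DESeq2 size factors, 71.5% under total counts and 34.4% of 733 with no filter. The share was 69.6% for counts over both strands, 72.1% with a prior of 5 counts and 66.2% with the GC trend removed. All 5 kept the sign of their log2 ratio under these alternatives. The split of all called genes followed the scaling, with 129 higher and 116 lower in replicate 1 under TMM, 119 and 121 under DESeq2 size factors and 146 and 97 under total counts. Over all reads of a library as the total, mean levels were 6291 CPM for Mir335, 220.2 for Mir483, 2.60 for Mir675, 209.7 for Mir296 and 429 for Mir298. Counts over both strands, whose total is smaller because reads on overlapping genes are left out, gave 22134 CPM for Mir335 and 9.07 for Mir675. Leaving out each replicate in turn gave 12191 to 20015 CPM for Mir335, 366 to 719 for Mir483, 5.60 to 7.61 for Mir675, 361 to 673 for Mir296 and 342 to 1723 for Mir298. It gave 28.1% to 51.4% for the share of Mir296 in its pair and 0.773% to 2.04% for that of Mir675, and 1 library allows no test of a difference. The spread between the replicates, as a biological coefficient of variation, was 0.416 with edgeR's common dispersion, 0.436 with every gene that had a count and 0.236 with DESeq2's median genewise dispersion, and the cause was not tested. No paired analysis was possible because the series has 1 group. Depth made Mir675, at 21 and 48 counts, the least precise of the 5.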
